A study of Mus musculus with 11 samples.

Results

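Upstream antisense RNA (uaRNA) was measured over 5867 regions in mouse embryonic stem (ES) cells. Of these, 222 passed a filter on level and were at least 4 times higher in libraries labelled siZC3H4 than in those labelled siNT. These regions were selected on their own measured values. A region was taken if its mean over 5 libraries was 10 depth-normalized reads or more, and if log2(siZC3H4 mean + 1) minus log2(siNT mean + 1) was 2 or more. The mean was reached by 5124 regions, and the 222 were 4.33% of these. The host of a uaRNA is the gene whose promoter it leaves, and each of the 222 hosts was annotated as protein-coding.

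The cells were wild-type F121-9, a female CAST/129 hybrid ES line, kept in serum-free medium with LIF and inhibitors of MEK and GSK3. They were transfected with 30 nM of a non-targeting siRNA (siNT, libraries 1, 2 and 3) or of an siRNA against Zc3h4 (siZC3H4, libraries 2 and 3), and all were given 500 µM 4-thiouridine (4sU) for 20 minutes and harvested at 47 hours. Nascent RNA was captured through 4sU and sequenced with strand information (TT-seq). Samples with a degradable ZC3H4, treated with DMSO or dTAG-13, are not analysed here. The labels do not say that libraries of a group came from separate cultures, so p-values measure only the spread between these samples, which may be technical.

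Active mammalian promoters fire in both directions. The transcript that leaves away from the gene, on the opposite strand, is short-lived and is usually ended early, while the gene's own transcript is carried on. ZC3H4, a zinc finger protein, acts with WDR82 in a complex named Restrictor that ends such noncoding transcription early. U1 snRNP, which recognises 5′ splice sites, and the cleavage and polyadenylation machinery, which recognises the AATAAA signal, also bear on how far a transcript runs.

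The siRNA target went against its label in this measure. Zc3h4 exons had 3465, 3610 and 3363 depth-normalized reads in siNT 1, 2 and 3, against 7285 and 6718 in the libraries labelled siZC3H4 (log2 difference 1.01 ± 0.11 SE, adjusted p = 0.00431, limma). Nascent exon reads do not measure the protein, and the direction of each value below is that of the libraries as labelled. Summed exon reads of 10 ES cell markers were between 93142 and 120248 in the 5 libraries. Among them, Klf2 and Tdgf1 were higher in both siZC3H4 libraries than in every siNT library, as were 19.5% of all genes. Tdgf1 was at 3012, 3930 and 3643 against 5544 and 4435. Dppa5a, at 16900, 15464 and 15655 against 12940 and 13611, was lower in both, as were 12.8% of all genes. The remaining ES cell markers overlapped between the groups. For markers of other cell types, the summed level of 4 primitive endoderm genes was 104 to 188 in siNT and 221 to 229 in siZC3H4, and that of 4 neural genes was 1310 to 1595 and 1892 to 1944. Pdgfra, Sox1, Pax6 and Tubb3 were higher in both siZC3H4 libraries than in every siNT library, as were 19.5% of all genes. Gata6, Gata4, Sox7 and Nes overlapped between the groups, Nes at 577, 309.6 and 871 against 424 and 751. Tubb3 is itself the host of a member. The part of these markers in the results was not tested. Of the fibroblast or feeder list, 2 of 6 genes were measured: Fn1 at 27836 to 32718 reads and Thy1 at 76.5 to 135. Eomes of the trophoblast list was at 168 to 228, and Zscan4c of the two-cell-like list was at 7, 7.83 and 2.56 in siNT and 14.1 and 15.3 in siZC3H4. Before scaling, the libraries held between 996927 and 2648683 uaRNA reads and between 14840637 and 26548710 exon reads.

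The promoters of the hosts with the largest folds (Hes6, Tulp4, Mettl22 and Zfp94) and with the highest levels (Rpl14 and Elob) are printed first, because the uaRNA leaves from them on the strand opposite to the one shown. Commd7 and Washc1 follow as the members of largest fold with GTAAG on the uaRNA strand, a choice made after the sequences were seen. Each run is the 250 bases before the host start, 5′ to 3′ on the host strand, from the RefSeq promoter table (build GRCm38.p6, the sequence of mm10). The RefSeq starts lay between 0 and 57 bases from the start in the authors' gene table, and a host without one within 100 bases was passed over. Capitals mark matches to the letters searched, on either strand.
Hes6: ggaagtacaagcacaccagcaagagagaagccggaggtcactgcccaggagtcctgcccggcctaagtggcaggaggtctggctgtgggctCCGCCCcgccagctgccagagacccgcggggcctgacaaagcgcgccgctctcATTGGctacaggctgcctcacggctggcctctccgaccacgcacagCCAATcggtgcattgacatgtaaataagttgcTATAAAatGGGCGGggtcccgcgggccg
Tulp4: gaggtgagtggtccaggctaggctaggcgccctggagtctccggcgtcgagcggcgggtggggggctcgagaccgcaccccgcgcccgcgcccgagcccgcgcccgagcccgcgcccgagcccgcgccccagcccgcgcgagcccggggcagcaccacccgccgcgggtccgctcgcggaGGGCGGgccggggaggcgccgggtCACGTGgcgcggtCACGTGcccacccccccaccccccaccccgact
Mettl22: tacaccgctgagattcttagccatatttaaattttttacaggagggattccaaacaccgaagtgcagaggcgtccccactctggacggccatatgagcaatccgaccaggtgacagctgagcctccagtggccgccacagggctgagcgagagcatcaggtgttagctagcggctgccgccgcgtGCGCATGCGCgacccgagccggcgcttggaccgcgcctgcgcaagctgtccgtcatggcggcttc
Zfp94: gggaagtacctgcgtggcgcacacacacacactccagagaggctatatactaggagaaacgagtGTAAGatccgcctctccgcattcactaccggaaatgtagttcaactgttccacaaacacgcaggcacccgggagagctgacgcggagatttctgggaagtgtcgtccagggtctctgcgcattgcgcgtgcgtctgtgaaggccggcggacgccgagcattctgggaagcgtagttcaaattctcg
Rpl14: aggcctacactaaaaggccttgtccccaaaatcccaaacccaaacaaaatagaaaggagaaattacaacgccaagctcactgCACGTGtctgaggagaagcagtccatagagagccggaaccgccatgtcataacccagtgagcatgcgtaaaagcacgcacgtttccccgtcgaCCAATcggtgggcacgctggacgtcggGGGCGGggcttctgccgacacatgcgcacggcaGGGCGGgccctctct
Elob: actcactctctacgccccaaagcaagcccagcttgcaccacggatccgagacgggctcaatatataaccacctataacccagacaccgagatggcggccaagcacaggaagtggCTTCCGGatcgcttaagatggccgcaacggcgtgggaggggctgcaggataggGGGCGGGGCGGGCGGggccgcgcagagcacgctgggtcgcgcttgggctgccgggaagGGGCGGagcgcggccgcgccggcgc
Commd7: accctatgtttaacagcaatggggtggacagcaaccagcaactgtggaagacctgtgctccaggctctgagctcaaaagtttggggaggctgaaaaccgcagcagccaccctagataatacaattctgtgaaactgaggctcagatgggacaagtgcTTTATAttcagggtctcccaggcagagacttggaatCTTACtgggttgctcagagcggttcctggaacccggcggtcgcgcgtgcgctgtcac
Washc1: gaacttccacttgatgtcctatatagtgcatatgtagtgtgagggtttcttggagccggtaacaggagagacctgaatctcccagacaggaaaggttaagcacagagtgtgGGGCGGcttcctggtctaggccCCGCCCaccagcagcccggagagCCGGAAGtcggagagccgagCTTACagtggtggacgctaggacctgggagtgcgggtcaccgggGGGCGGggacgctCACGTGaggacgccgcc

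The promoters of 2 hosts just below the threshold, Selenoh (log2 1.995) and Ripk3 (log2 1.994), are given for comparison.
Selenoh: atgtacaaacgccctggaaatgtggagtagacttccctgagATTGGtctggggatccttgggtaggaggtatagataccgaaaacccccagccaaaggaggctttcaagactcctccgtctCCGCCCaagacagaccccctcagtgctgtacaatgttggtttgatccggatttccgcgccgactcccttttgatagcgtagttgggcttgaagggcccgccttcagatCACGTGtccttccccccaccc
Ripk3: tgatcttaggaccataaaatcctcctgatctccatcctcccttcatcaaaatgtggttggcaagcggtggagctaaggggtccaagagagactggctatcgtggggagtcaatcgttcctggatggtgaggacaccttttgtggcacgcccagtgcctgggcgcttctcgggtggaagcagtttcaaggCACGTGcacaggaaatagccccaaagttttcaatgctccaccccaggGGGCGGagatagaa

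The Hes6 promoter is at chr1:91413223-91413472 (minus strand), that of Tulp4 at chr17:6106580-6106829 (plus strand), that of Mettl22 at chr16:8470563-8470812 (plus strand) and that of Zfp94 at chr7:24316667-24316916 (minus strand). The Rpl14 promoter is at chr9:120571267-120571516 (plus strand), that of Elob at chr17:23829110-23829359 (minus strand), that of Commd7 at chr2:153632782-153633031 (minus strand) and that of Washc1 at chr17:66111395-66111644 (plus strand). Selenoh is at chr2:84670709-84670958 (minus strand) and Ripk3 at chr14:55788858-55789107 (minus strand). Hes6 held 2 matches to GGGCGG, the letters bound by SP1, 2 to ATTGG (NF-Y) and 1 to TATAAA, the TATA box. Tulp4 held 2 matches to CACGTG, the E-box, and Mettl22 held 2 overlapping matches to GCATGCGC (NRF1). In Zfp94 the only match was GTAAG on the host strand. Elob held 4 matches to GGGCGG and 1 to CCGGAAG (ETS). In Commd7 and Washc1, the capitals CTTAC are GTAAG read on the uaRNA strand, 57 and 74 bases before the start. Both comparison promoters held a GGGCGG and a CACGTG.

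A promoter was found for 182 of the 222 members (82%), with a RefSeq start within 1000 bases of the host start on the same strand. Shares were counted over 250 bases before to 50 after the start. They are set beside the promoters of 4069 tested hosts and beside all 32851 promoters of the table, which include genes that these cells need not use. The 4069 are 79.4% of tested hosts, under 80%, so as a check of all tested hosts the comparison is void, and their shares describe those 4069 only. The median G+C content was 61.8% in members, 63% in the tested hosts and 52.7% in all promoters.

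GTAAG, the core of a 5′ splice site, was on the uaRNA strand in 29 of the 182 (15.9%), in 9.95% of tested hosts and in 14.5% of all promoters. On the host strand GTAAG was in 12.1% of members, 10.7% of tested hosts and 17% of all promoters. The longer GGTAAG, which contains GTAAG, was on the uaRNA strand in 5 members (2.75%, against 2.21% and 4.25%). The polyadenylation signal AATAAA was on the uaRNA strand in 4 members (2.2%, against 3.74% and 10.5%), and the variant ATTAAA in 5 (2.75%, against 3.1% and 7.44%). Members were thus near the tested hosts in GGTAAG and ATTAAA, and the difference from all promoters in AATAAA was for the most part shared by the tested hosts.

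Of the letters searched on both strands, GGGCGG (SP1) was in 71.4% of members, 72.5% of tested hosts and 35.7% of all promoters. CCGGAAG (ETS) was in 26.9%, against 21.9% and 8.86%, and CACGTG (E-box) in 16.5%, against 12.1% and 7.15%. ATTGG (NF-Y) was in 39.6%, against 39.4% and 37.4%. The shares of tested hosts were thus close to those of members in SP1 and NF-Y. TGACGTCA (CRE) was in 4.95% (4.01% and 1.79%), GCATGCGC (NRF1) in 4.4% (7.27% and 2.71%), ACTACAA (ZNF143) in 3.85% (4.1% and 3.24%) and AAGATGGCG (YY1) in 1.1% (3.76% and 1.4%). TATAAA was on the host strand in 5.49% (3.39% and 8.32%). None of these letters was common to all members, and matches are descriptions of the sequence, not of binding.

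The members were low in the siNT libraries and moderate in the others. Their siNT mean had a median of 23.7 reads, with quartiles of 9.91 and 59.5, while the median over all 5124 regions was 55.3. Their siZC3H4 mean had a median of 119 reads, against 103 over all regions. Members took 1.11% to 1.33% of all uaRNA reads in the siNT libraries, and 4.56% and 3.32% in siZC3H4 libraries 2 and 3. In each of the 222, both siZC3H4 libraries were above all 3 siNT libraries, which held for 73.7% of tested regions. All 222 were also past the limma test for a rise, as were 62.1% of tested regions. The selection used these values, so both counts are description.

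**Figure D1:**
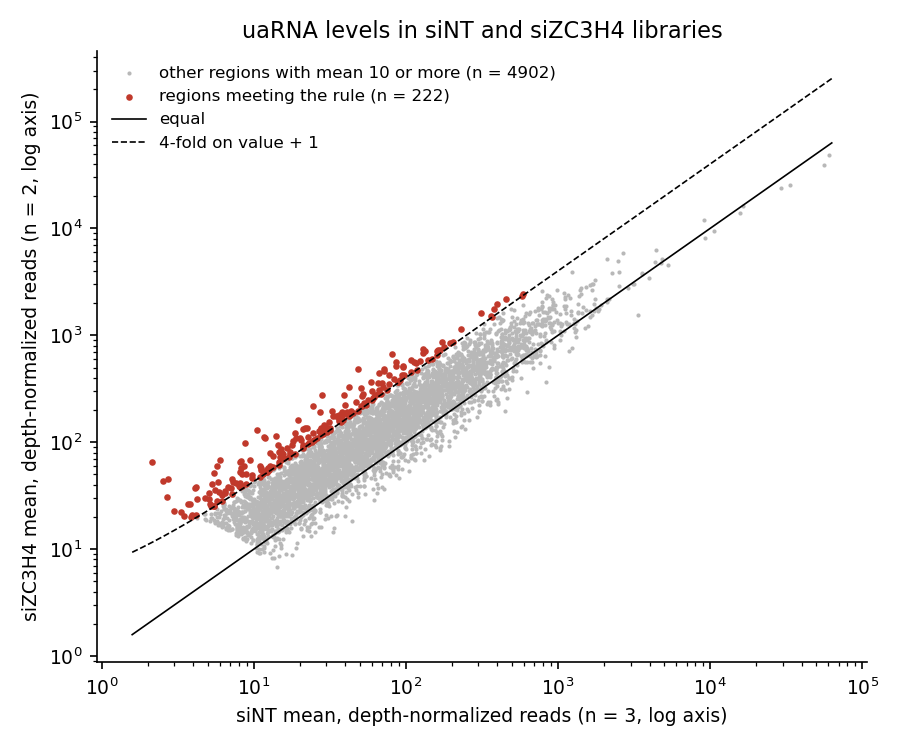
Mean uaRNA level in the siNT libraries (n = 3, horizontal) and in the siZC3H4 libraries (n = 2, vertical), in depth-normalized reads on log axes, for 5124 regions. The 222 selected regions, in red, lie on or above the dashed 4-fold line and mostly toward the low end of the siNT axis, where the median member is at 23.7 reads.

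The fold of the rule ran from 4.01 to 20.9, with a median of 4.66. It lay between 4 and 5 in 141 members, was 5 or more in 81, 6 or more in 39 and 8 or more in 15. The median of the 5124 tested regions was itself higher in siZC3H4, by 0.87 on the log2 scale. After TMM scaling within the uaRNA table, which removes most of that shared shift (the median became 0.02), the members had a median log2 difference of 1.37 and a lowest of 1.04. After that scaling 22 of them were still at 4-fold or more, among them Hes6, Ccdc60, Tulp4, Mettl22 and Bach1.

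The largest fold was at Hes6, which encodes a basic helix-loop-helix protein of the Hairy and Enhancer of split family that acts in neural differentiation. Its uaRNA was at 3, 1.74 and 1.71 depth-normalized reads in siNT 1, 2 and 3 and at 60.6 and 68.8 in siZC3H4 2 and 3, a fold of 20.9 on the value + 1 scale. The siNT values stand for 3, 2 and 2 whole reads. From the whole reads, the ratio per unit of depth was 30.2 (95% exact interval 14.4 to 76.2, covering counting error only).

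Ccdc60, a coiled-coil gene, was next. Its uaRNA was at 5, 0.87 and 1.71 in siNT and at 56.6 and 30.6 in siZC3H4, a ratio of 19.5 (9.61 to 46.1) from 8 and 132 whole reads. The uaRNA of Tulp4, a tubby-like gene, was at 3, 1.74 and 3.41 against 50.9 and 40.2, a ratio of 17.3 (8.85 to 38.7). Both were near the level of single reads in siNT, so the size of the fold is known only loosely. Hes6, Ccdc60 and Tulp4 were chosen for their folds in these same reads. The intervals do not allow for that choice, and the gap between the groups is description.

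Folds at higher siNT levels rest on more reads. The uaRNA of Zfp94, a zinc finger gene, was at 48, 53.9 and 42.7 in siNT and 624 and 339 in siZC3H4 (9.81-fold). That of Btbd8, which encodes a BTB domain protein, was at 30, 18.3 and 35.8 against 334 and 224 (9.64-fold). At both the lower siZC3H4 library was more than 5 times the highest siNT library.

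The other members among the 12 largest folds were Mettl22 (11.4-fold), Oplah (10.1-fold), Sytl1 (9.82-fold), Mpv17l2 (9.05-fold), Commd7 (9-fold), Gcfc2 (8.67-fold) and Washc1 (8.64-fold). Mettl22 encodes a methyltransferase-like protein, Oplah is the 5-oxoprolinase of glutathione turnover, and Washc1 is a subunit of the WASH complex that builds actin on endosomes. In siNT libraries, Oplah was at 9, 10.4 and 6.83, and in siZC3H4 libraries at 116 and 79.3. Gcfc2 was at 2, 2.61 and 3.41 against 31.1 and 30.6, the closest pair of siZC3H4 values among the 12. Mpv17l2 has an annotated RefSeq gene, 6330537M06Rik, that starts on the uaRNA strand within 1 kb, so its reads may belong to that gene.

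**Figure D2:**
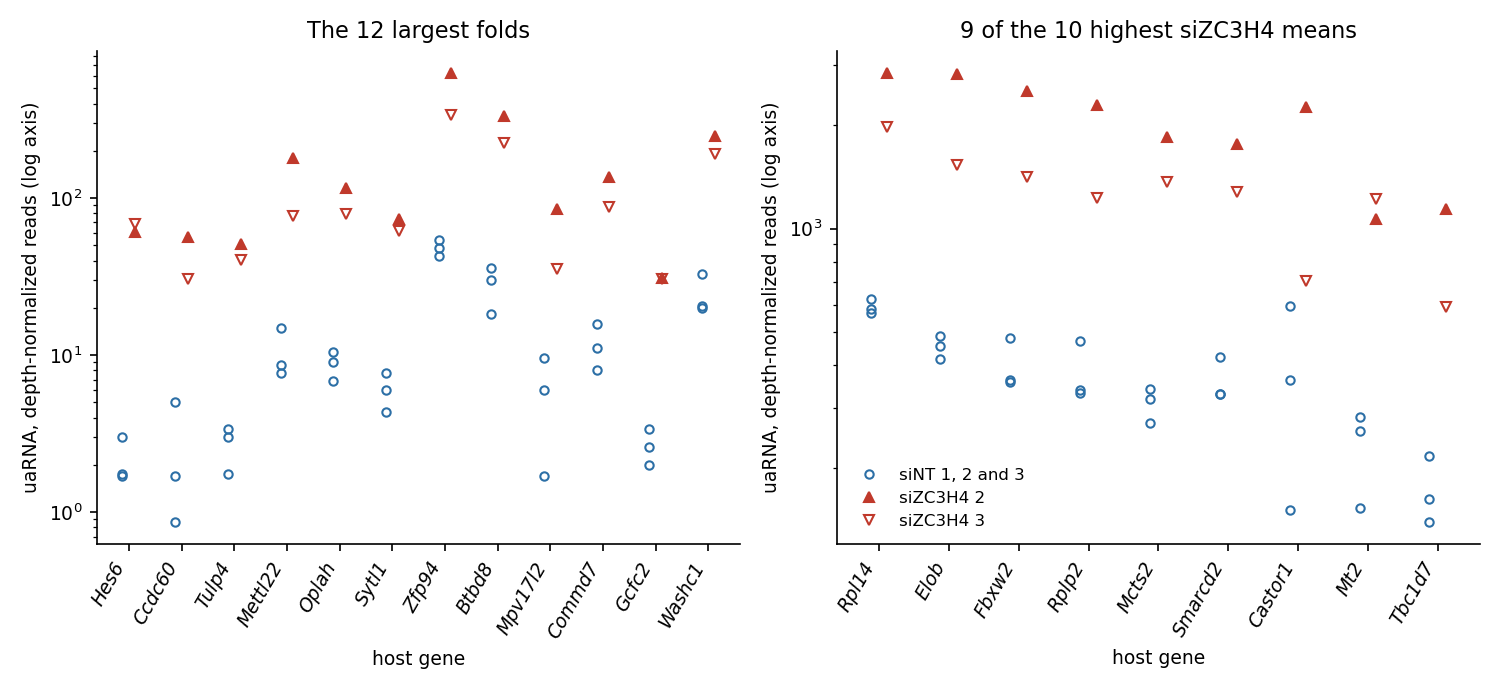
uaRNA reads in each library (log axis) for the 12 members with the largest fold (left) and for 9 of the 10 with the highest siZC3H4 mean (right); open circles are siNT 1, 2 and 3, filled upward triangles siZC3H4 2 and open downward triangles siZC3H4 3. No siZC3H4 value overlaps a siNT value of the same region; Castor1, with siNT values from 151 to 594 and siZC3H4 values of 2262 and 703, comes nearest.

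The highest siZC3H4 mean among members was 2410 reads, at Rpl14, a protein of the large ribosomal subunit. Its uaRNA was at 584, 623 and 568 reads in siNT and 2838 and 1983 in siZC3H4. Elob, elongin B, a subunit of elongin and of cullin ubiquitin ligases, was at 488, 455 and 417 against 2827 and 1528. In both, siZC3H4 library 2 was well above library 3.

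Fbxw2, an F-box protein of SCF ubiquitin ligases, was at 362, 479 and 357 against 2511 and 1418. Mcts2, a retrogene copy of a translation factor, was at 318, 272 and 342 against 1855 and 1371. Smarcd2, a subunit of SWI/SNF chromatin remodelling complexes, was at 423, 329.6 and 329 against 1763 and 1278. Also among the 10 highest were Rplp2, Castor1, Mt2 and Tbc1d7, at siZC3H4 means of 1764, 1482, 1143 and 866. Mt2, a metallothionein that binds zinc and copper, differed from the others named here in being higher in library 3 (1218) than in library 2 (1068). Tbc1d7 has the RefSeq gene Gm40929 starting on the uaRNA strand within 1 kb.

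The siZC3H4 libraries did not contribute alike. Library 2 was above library 3 in 195 of 222 members (87.8%) and in 69.2% of all tested regions, and the median log2 difference between them was 0.51 in members and 0.21 overall. Against the siNT mean, 207 members were at 4-fold or more in library 2, 109 in library 3 and 94 in both. At 2-fold or more were 222 in library 2 and 221 in library 3. The 4-fold criterion was therefore met in library 3 alone by fewer of the members, while nearly all passed 2-fold there.

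The widest gap was at Castor1, the arginine sensor of the mTORC1 pathway. Its uaRNA was at 362, 594 and 151 in siNT and 2262 and 703 in siZC3H4, so that library 3 alone gave a log2 difference of 0.93 and lay only slightly above the highest siNT library. Trp53rka (84.3 and 29.6), Fuca1 (66.2 and 24.9), Cog2 (104 and 39.2) and Lypla2 (141 and 56.4) followed, each also lower in library 3. The closest agreement was at Skil (70.7 in each), Inpp5d (458 and 456), Rxylt1 (32.8 and 32.5), Gcfc2 and Rasgef1a (222 and 226). Skil encodes SnoN, a repressor of TGF-β signalling. In the opposite direction Dhrs7b had the largest gap, with 14.1 in library 2 and 27.7 in library 3.

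**Figure D3:**
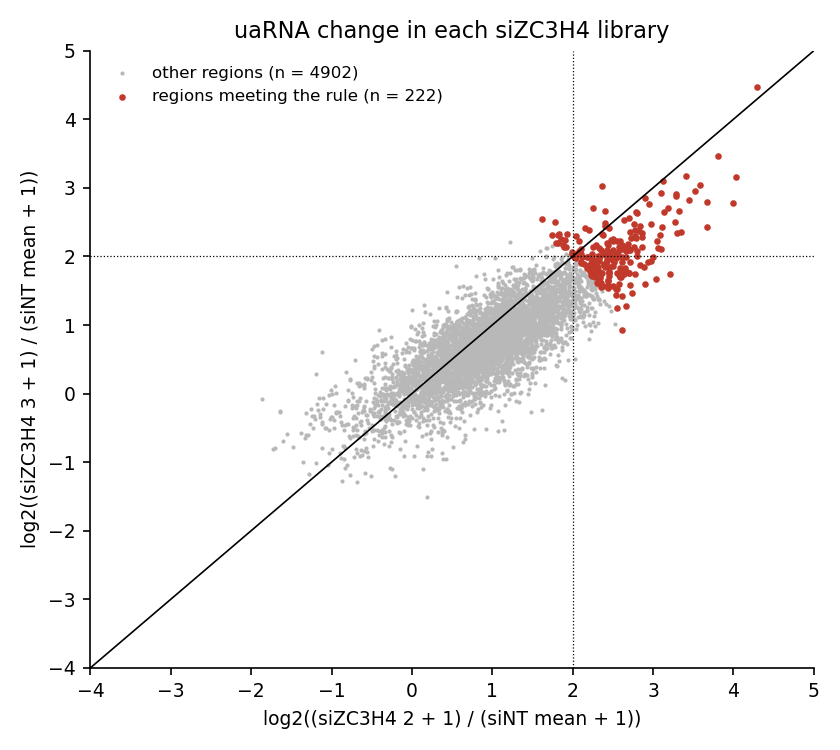
Change of each uaRNA region in siZC3H4 library 2 (horizontal) and library 3 (vertical), as log2 of value + 1 over the siNT mean + 1, for 5124 regions; the diagonal marks equal change and dotted lines 4-fold. Most of the 222 members, in red, lie below the diagonal, with 207 past 4-fold in library 2 and 109 in library 3.

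To read regions in libraries that did not choose them, regions were chosen at 4-fold in number 2 (siZC3H4 2 over siNT 2) and then read in number 3. Of the 596 chosen, 114 (19.1%) were at 4-fold or more in number 3, against 3.66% of all regions, and 484 (81.2%) were at 2-fold or more, against 33.6%. Their median log2 difference was 2.31 where they were chosen and 1.54 where they were read, and over all regions it was 0.72. In the other direction 180 were chosen in number 3, of which 112 (62.2%) were at 4-fold or more in number 2, against 11.3% of all regions. Their median was 2.25 where chosen and 2.22 where read. Regions as a whole were also higher in number 2, where 56.7% were at 2-fold or more, against 33.6% in number 3. The near-equal medians are therefore no measure of how far the fold was kept. Regions at 4-fold in number 2 were thus mostly at 2-fold or more in number 3, while 19.1% of them were at 4-fold there. Of those at 4-fold in number 3, 62.2% were at 4-fold in number 2. Members made up 206 of the 596 and 113 of the 180, so this reading is not separate from the selection.

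The edge of the rule separated regions with nearly equal values. Just inside were Slc31a2, Kat5, Snapc2, Castor1 and A4galt, all at 4.01-fold. Just outside were Selenoh (3.99-fold), Ripk3 (3.98-fold), Setdb1 (3.97-fold), and Tbc1d8 and Ubp1 (both 3.96-fold). Kat5, a histone acetyltransferase, was at 162, 154 and 166 in siNT and 800.2 and 495 in siZC3H4. Selenoh, a nuclear selenoprotein, was at 136, 133 and 159.6 against 659 and 486. Setdb1, a histone H3 lysine methyltransferase, was at 9, 8.7 and 4.27 against 33.4 and 30.6.

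A low level in siNT went with membership, and the siNT mean is also the base of the fold. Among tested regions with a siNT mean of 20 to 50 reads, 57 of 1319 (4.32%) were members, and the share was 3.71% at 50 to 100, 2.3% at 100 to 200 and 1.08% (10 of 925) at 200 or more. It was 5.53% at 10 to 20 and 14% at 5 to 10. Below 5 it was 76.2% (16 of 21). In both ranges under 10, the filter on the mean admits only regions that are higher in siZC3H4 than in siNT. The shares there are thus partly set by the filter. With the 56 members under a siNT mean of 10 left out, 166 of 4818 regions (3.45%) remained.

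Hosts of members were somewhat shorter. Their median genomic span was 18559 bases, against 22533 over the hosts of all tested regions, and 19.4% spanned under 5 kb, against 12.5%. By quartile of span, from shortest to longest, 5.39%, 4.53%, 4.38% and 3.05% were members. The shortest hosts were H3c13 (462 bases) and H2ac18 (515), which are histone genes, Mcts2 (763), Mt2 (785) and Atp5k (1147). The longest were Utrn (485779), Agap1 (435211), Tcf4 (343872), Fmnl2 (276023) and Mrtfb (160988). Utrn encodes utrophin, and its uaRNA was at 12, 10.4 and 21.3 against 57.2 and 72.7. Host expression differed little, with a median of 279.5 siNT exon reads per kb of transcript against 318, and members made up 5.07%, 4.37%, 3.75% and 4.14% of tested regions from the lowest to the highest quartile of that level.

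Members were spread over the chromosomes, from 1.45% of tested regions on chromosome 18 (2 of 138) to 6.3% on chromosome 8 (17 of 270). In 15 pairs, member hosts started within 100 kb of each other. Ctxn1 and Snapc2 were 6237 bases apart, and Map2k7 lay 20496 and 14259 from them. The histone genes H2ac18 and H3c13 were 23142 bases apart, and the zinc finger genes Zfp94 and Zfp108 were 61878 apart. Hes6 and Ilkap were 14424 apart, Washc1 and Ddx11 11910, Osm and Castor1 17847, and Hdhd3 and Alad 17682. The paralogs Rnaset2a (4.42-fold) and Rnaset2b (7.53-fold) are near copies of each other, so how reads were split between them is uncertain.

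Cytosolic ribosomal proteins were the family with the highest share among those with 20 or more tested hosts: 8 of 55 (14.5%) were members, against 4.33% of all regions, and the median log2 difference over the 55 was 1.23, against 0.87. Among these members were Rpl13, Rplp2, Rpl36a, Rplp1, Rpsa and Rpl14. Rpl13 was at 91, 93.9 and 74.2 in siNT and 746 and 377 in siZC3H4 (6.43-fold), and Rplp1, a stalk protein of the large subunit, was at 209, 169 and 235 against 881 and 843 (4.2-fold). The median exon log2 difference of the 8 hosts was 0.08. Exon reads of ribosomal protein genes can be shared with processed copies elsewhere in the genome, so these levels are uncertain.

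Of RNA helicases, 3 of 25 (12%) were members (Dhx8, Ddx11 and Ddx17). Vesicle sorting genes gave 4 of 42 (9.52%), which were Commd7, Washc1, Commd2 and Vps33b. Zinc finger genes gave 12 of 189 (6.35%), solute carriers 6 of 87 (6.9%) and ubiquitin ligases and proteases 7 of 119 (5.88%). No member was among 58 cyclins and cyclin kinases, 34 RAB GTPases, 30 centrosome and cilium genes, 27 mitochondrial ribosomal proteins, 23 DNA repair genes or 21 histone methylation enzymes. At 4.33%, the share of members over all regions, lists of these sizes would hold few, so these absences are near the background. These families were built from symbols, and their shares carry no test.

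**Figure D4:**
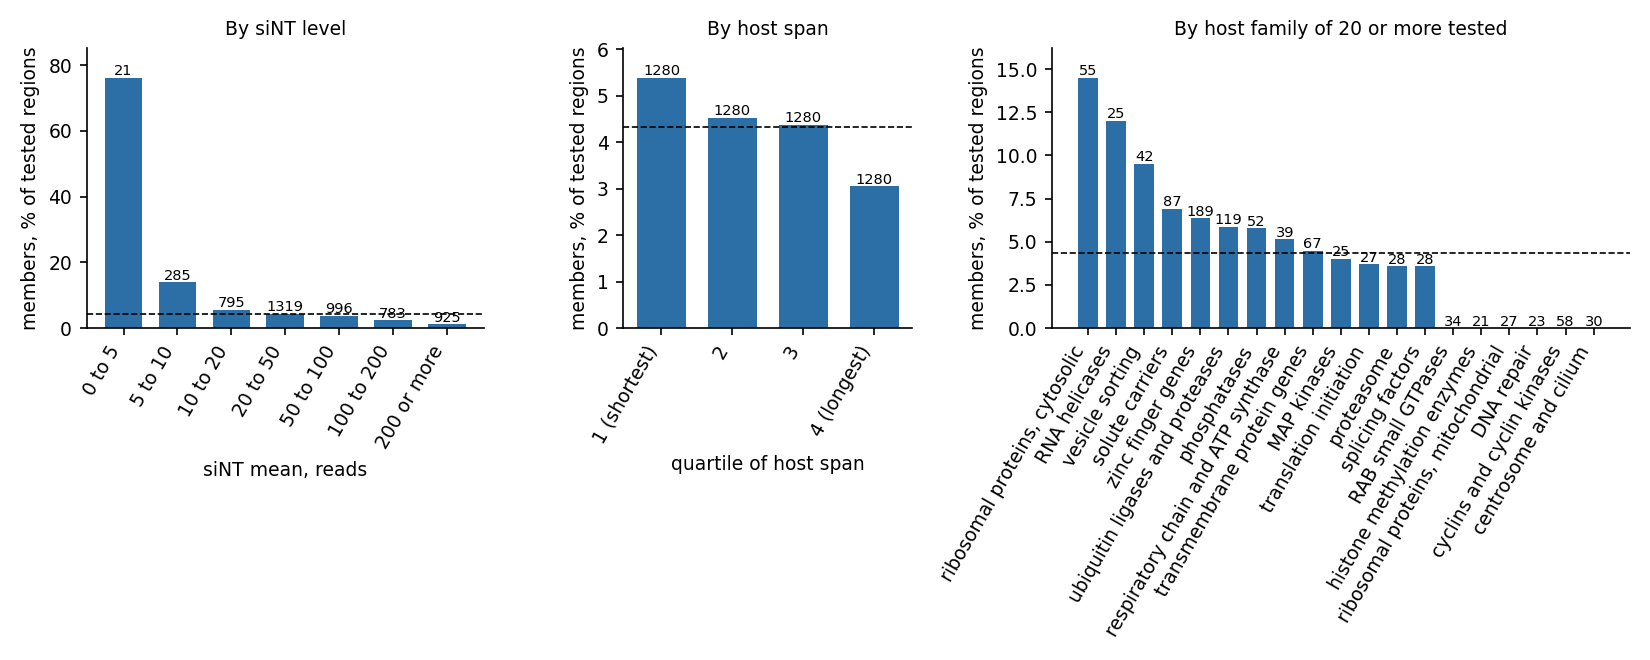
Members as a percentage of tested regions by siNT uaRNA mean in depth-normalized reads (left), by quartile of host span (middle) and by host family of 20 or more tested regions (right); numbers above bars are tested regions and the dashed line is 4.33%. The share falls from the lowest to the highest siNT level and from the shortest to the longest hosts, and is 14.5% among cytosolic ribosomal proteins. The siNT mean is the base of the fold, and under a siNT mean of 10 the shares are partly set by the filter.

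Several hosts are signalling genes, named here for their known function after their values were seen. Of secreted factors, Gdf3, a TGF-β family ligand expressed in ES cells, had a uaRNA at 79, 50.4 and 59.7 in siNT and 310.1 and 238 in siZC3H4. Its exon reads were 2789, 2757 and 2800 against 2711 and 2649 (log2 difference -0.05 ± 0.11 SE, adjusted p = 0.898, limma). Osm, a cytokine of the LIF family, had a uaRNA at 39, 27 and 17.1 against 163 and 107, and exon reads of 1158, 1288 and 1439 against 1576 and 1900 (log2 0.42 ± 0.14, adjusted p = 0.189). Neither gene passed the exon test. In exons both siZC3H4 libraries were below every siNT library at Gdf3, as in 12.8% of all genes, and above at Osm, as in 19.5%.

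Inside the cell, Lats2, a kinase of the Hippo pathway, had a uaRNA at 10, 9.57 and 8.53 in siNT and 52.6 and 83.2 in siZC3H4, and exon reads of 271, 260 and 243 against 355 and 354 (log2 0.46 ± 0.16 SE, adjusted p = 0.202, limma). Among nuclear factors, Bach1, a repressor of heme-responsive genes, had a uaRNA at 8, 6.09 and 10.2 against 69.6 and 61.2 and an exon log2 difference of -0.02 ± 0.19 (adjusted p = 0.986). L1td1, an RNA-binding protein of ES cells, had a uaRNA at 110, 137 and 103 against 708 and 383, with an exon log2 difference of 0.1 ± 0.14 (adjusted p = 0.829). None of these hosts passed the exon test.

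Exon reads of the hosts come from the other table of the same libraries, which the rule did not use. All 222 hosts were tested, and 3 rose and none fell at an adjusted p of 0.05 (limma), against 2.22% and 0.144% of 12482 genes. At an unadjusted p under 0.05, 31 were higher (14%, against 11% of all genes) and 7 lower (3.15%, against 4.39%). DESeq2 on the recovered reads called 12 higher (5.41%, against 4.68%) and 2 lower (0.901%, against 0.849%). These shares were near those of all genes. The median log2 difference was 0.04 in the hosts and 0.01 over all genes, and 191 of 222 hosts lay within 0.5 of 0. Both siZC3H4 libraries were above every siNT library in 54 hosts (24.3%, against 19.5% of all genes) and below in 24 (10.8%, against 12.8%). A difference under the spread of these libraries cannot be seen, so the 219 hosts that did not pass are not shown to be equal.

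The host with the largest exon change was Dglucy, the D-glutamate cyclase of mitochondria (chr12:100779095-100872354, plus strand). Its exon reads were 94, 93.9 and 139.9 in siNT and 952 and 849 in siZC3H4, a log2 difference of 3.05 ± 0.22 (adjusted p = 0.000969). Its uaRNA was at 22, 9.57 and 24.7 against 143 and 99.4, so the exon change was the larger. Edn1, the endothelin precursor (chr13:42301430-42307990, plus strand), had exon reads of 164, 133 and 134 against 297 and 389 (log2 1.24 ± 0.20, adjusted p = 0.0167).

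Ptpn14, a tyrosine phosphatase that binds the Hippo effector YAP (chr1:189728175-189876695, plus strand), had exon reads of 1176, 1276 and 1184 against 2132 and 2171, a log2 difference of 0.83 ± 0.12 (adjusted p = 0.0101). The calls of Edn1 and Ptpn14 were lost without siNT 1 (adjusted p = 0.0844 for each), without siZC3H4 2 (0.0905 and 0.129) and without siZC3H4 3 (0.134 and 0.0726). Dglucy passed in each of these. Over all genes, only 2 rose without siNT 1. Without siNT 3, 14 hosts rose (6.31%, against 5.42% of all genes) and 4 fell (1.8%, against 1.1%), near the shares of all genes. Of the other hosts, Ccdc60, Chst15, Mfsd9 and Etv4 were at a log2 of 1 or more without passing (adjusted p = 0.0803, 0.0808, 0.1 and 0.129).

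**Figure D5:**
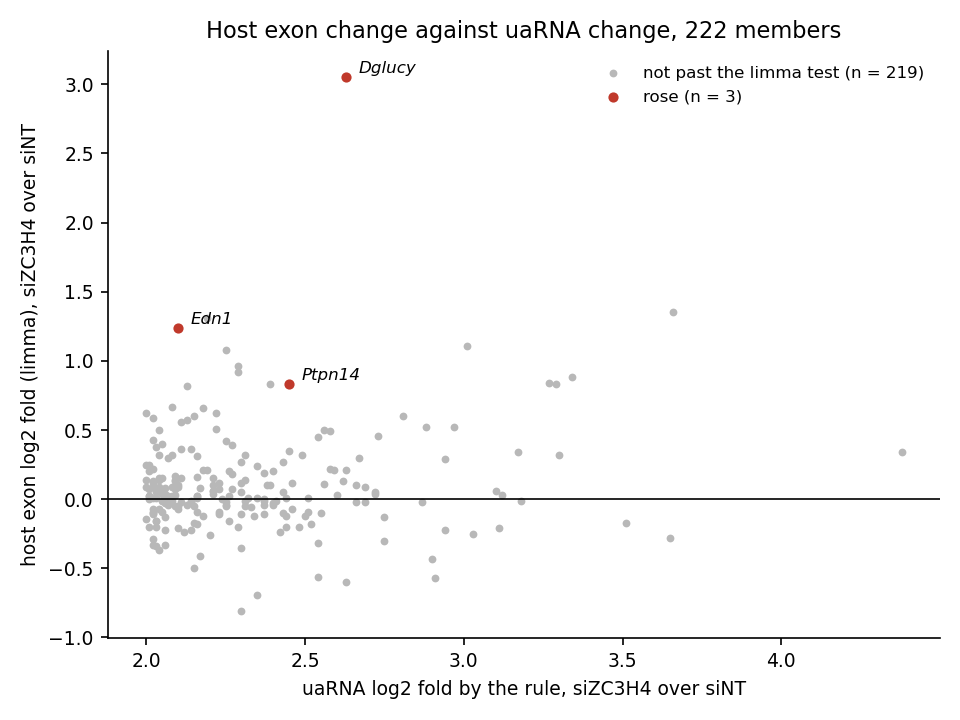
Exon log2 difference of each host (vertical, limma, siZC3H4 over siNT) against the log2 fold of its uaRNA by the rule (horizontal) for 222 members; red points are the 3 hosts that rose. Most hosts lie near 0 at every uaRNA fold, with Dglucy at 3.05, Edn1 at 1.24 and Ptpn14 at 0.83.

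Genes on the uaRNA strand upstream of the host start were taken from the authors' gene table. In 11 members (4.95%, against 9.56% of tested regions) the nearest such gene started 1 to 10 kb beyond the host start, in 58 at 10 to 50 kb, and in none under 1 kb in that table. Of the 11 genes at 1 to 10 kb, 3 rose, against 18 of 477 (3.77%) for the same distance from all tested regions. Of the genes at 10 to 50 kb with tested reads, 1 of 56 rose, against 33 of 1192 (2.77%) for all tested regions. It was 4933430I17Rik, one of the 3 above, counted again from Hdhd3. The uaRNA regions have no coordinates, so whether exon reads of such genes are also reads of the member's uaRNA was not tested.

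Tcam1, a testicular cell adhesion gene (chr11:106276580-106288143, plus strand), starts 3615 bases upstream of Smarcd2 on the uaRNA strand. Its exon reads were 22, 20.9 and 36.7 in siNT and 145 and 171 in siZC3H4 (log2 2.57 ± 0.31, adjusted p = 0.00569). Pidd1, which encodes the core of the caspase-2 activating platform (chr7:141438113-141443984, minus strand), starts 3667 bases upstream of Rplp2. Its exon reads were 1393, 1487 and 1531 against 2492 and 2263 (log2 0.69 ± 0.12, adjusted p = 0.0214).

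The third was 4933430I17Rik (chr4:62525276-62547993, plus strand), which starts 5380 bases upstream of Alad, the second enzyme of heme synthesis, and 23062 upstream of Hdhd3. Its exon reads were 31, 41.7 and 29 against 99 and 95.6 (log2 1.51 ± 0.27, adjusted p = 0.0265). The exons of Smarcd2, Rplp2 and Alad themselves did not pass, at log2 differences of 0.01, 0.04 and -0.11. Without siNT 1, none of the 3 neighbours passed (adjusted p = 0.0646 for Tcam1, 0.135 for Pidd1 and 0.144 for 4933430I17Rik), nor without siZC3H4 2 (0.0516, 0.292 and 0.261), and without siZC3H4 3 only Tcam1 did (0.035). Without siNT 2, Pidd1 was at 0.0505.

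The other 8 genes at 1 to 10 kb did not pass. Gm34653, 6451 bases upstream of Fbxw2, was at 11, 13 and 16.2 against 24.9 and 34.4 (log2 1.09 ± 0.36, adjusted p = 0.181), and H4c14, 5347 upstream of H3c13, was at 4942, 4230 and 4253 against 2869 and 3728 (log2 -0.45 ± 0.14, adjusted p = 0.161). In 7 members (3.15%, against 7.53% of tested regions) an annotated gene on the uaRNA strand covers the host start or starts within 1 kb of it: Mpv17l2, Prelid3b, Igsf9, Tbc1d7, Aaas, Atp5k and Flvcr1. Reads there cannot be assigned to the uaRNA alone. The lncRNA A230020J21Rik, which covers the Flvcr1 start, had exon reads of 11, 16.5 and 11.9 against 40.2 and 35.4 (log2 1.47 ± 0.35, adjusted p = 0.065).

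No gene on the lists of transcription, RNA processing and RNA decay machinery was a host of a member. The lists of Restrictor, WDR82 partners, Integrator, the nuclear exosome and its adaptors, cap binding, cleavage and polyadenylation, U1 snRNP and elongation factors held 48 tested regions, of which 31 rose and 1 fell by limma, against 62.1% of all tested regions that rose. At 4.33%, the share of members over all regions, a list of this size would hold few, so the absence of members is near the background. Members outside the lists include Ints6l (7.47-fold), a paralog of an Integrator subunit, and Ell (6.6-fold), an elongation factor, beside Elob above. The median log2 difference of the 48 regions on the lists was 0.81, against 0.87 over all regions. The highest were Wdr33 (1.83), a polyadenylation factor that reads AATAAA, and Exosc3 (1.76), a subunit of the exosome. The uaRNAs of Zc3h4 and Wdr82 themselves were at 0.10 and 0.17. Of 95 genes of these lists with tested exon reads, 1 rose, Zc3h4, against 2.22% of all genes.

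Of 15 tested uaRNAs of naive pluripotency genes, 13 rose, against 62.1% of all regions, and none was a member, against 4.33%, a share that leaves under 1 member in a list of this size. The highest was Sall4 (log2 1.79), with siNT mean 244 ± 23.7 (SD, n = 3) and siZC3H4 mean 843 ± 219 (SD, n = 2), and Zfp42 was at 1.45 and Nanog at 1.26. Dppa2 was at -0.55. The siNT levels of these uaRNAs were mostly above the members' median of 23.7 reads, at 313 for Sox2, 529 for Nanog and 851 for Pou5f1.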

How the data were processed

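The authors deposited depth-normalized signal per library for 5867 uaRNA regions, named by host gene identifier without coordinates, and for genes counted over exons, with coordinates on mm10 (GRCm38), per the file headers and the submitters' processing notes. Those notes name cutadapt 1.14, STAR, featureCounts and DESeq2, and the builds mm10 and dm6, without order or settings; the origin of the depth factors is not given in these sources. In both deposited tables each signal value was a whole read count divided by 1 factor per library (1, 1.15 and 1.172 for siNT 1, 2 and 3, and 1.767 and 1.046 for siZC3H4 2 and 3); 100% of values came out whole within 0.01 reads.

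The members, lists, families and tests were chosen with earlier results of these data known. Named were the 12 largest folds, the 10 highest siZC3H4 means, 5 hosts on each side of the threshold, hosts past the exon test, the 5 shortest and 5 longest hosts, the 5 largest and 5 smallest differences between siZC3H4 libraries, and neighbours past the test; others are said to be chosen after their values were seen, and a few members that the rule would name are not reported here. Differences were tested on log2(value + 1) with limma 3.58.1 in R 4.3.3 (trend, no block), over all features with a mean of 10 or more (5124 regions, 12482 genes), with Benjamini-Hochberg adjustment at 0.05; log2 differences on this scale understate those of low features, and levels are mean ± SD. On the recovered reads, edgeR 4.0.16 (quasi-likelihood) called 345 genes higher and 19 lower in exons, and DESeq2 1.42.0 584 and 106, against 277 and 18 by limma. The limma script was checked on simulated data. Host positions come from the gene table; 6 genes whose end precedes their start, none a member, were given no span. Neighbours are genes on the strand opposite to the host whose start lies upstream of the host start. Each library left out in turn, other pseudocounts, filters and scalings, and a replicate block were tried.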

Additional observations from a re-analysis of the deposited data

How the results depend on the processing

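The count of 222 regions ranged from 109 (without siZC3H4 replicate 2) to 363 (without siZC3H4 replicate 3) when 1 library was left out, and 101 and 201 of the members were kept in these. It was 122 with a pseudocount of 5, and 22 after scaling within the uaRNA table by TMM or by the median of ratios, 22 of them members in each case. Under the other planned settings it lay between 190 and 247, apart from 266 with a replicate block. When 1 siNT library was left out, the number of hosts with higher exon reads (3) ranged from 1 to 14. That of hosts with lower (0) ranged from 0 to 4. Over all genes these counts ranged from 2 to 677 and from 0 to 137. With DESeq2 the hosts were 12 and 2, against 584 and 106 of all genes. The hosts' median exon log2 difference ranged from 0.02 to 0.10 with 1 library left out. The count of 3 neighbours at 1 to 10 kb ranged from 0 to 3 with 1 library left out, an alternative added after seeing the data, as was the 166 members with a siNT mean of 10 or more. Reading number 3 at 2-fold in place of 4-fold gave 484 in place of 114.

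Among the 22 members named for fold or level, all stayed higher in siZC3H4, with log2 differences from 1.04 to 3.65 under TMM scaling within the uaRNA table (12 at 2 or more) and from 0.93 to 4.47 without siZC3H4 replicate 2 (14 at 2 or more). GGGCGG was in 64.8% of member promoters when the 250 bases before the start were used alone, against 71.4%.

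Samples share replicate numbers 2 and 3 in the labels, which do not say what a number stands for; deviations correlated at r = 0.528 for number 2 and 0.618 for number 3, over features, from 2 pairs. With a replicate block in limma 34 hosts (15.3%, against 12.3% of all genes) had higher and 9 (4.05%, against 6.65%) lower exon reads, and 4 neighbours passed; the samples share only a number, so no pairing is claimed.

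With 3 libraries against 2, and siNT means under 10 reads in 56 members, small host changes and the exact size of large folds were beyond this depth.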
